A study of Homo sapiens with 6 samples.

Results

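The MYC, MAX and MXD network genes are a family of transcription factor genes whose proteins compete for a shared partner, MAX, and here comprise MYC, MAX, MXI1, MXD1, MXD3, MXD4, MNT, MLX and MGA. These 9 genes were chosen by name, with earlier results of these data known. All 9 were found by symbol among the 20289 genes of the deposited expression table. The cells were RKO, an established line from a human colorectal cancer. RNA sequencing gave 3 libraries of cells with a control short hairpin RNA (shControl; called wild type in the labels) and 3 of cells with a hairpin against TRMT6 (shTRMT6, the knockdown). TRMT6 is the non-catalytic subunit of the methyltransferase that makes 1-methyladenosine in tRNA. No drug or time point is given for either group, and the hairpin sequences, how many hairpins were used and whether the cells were a clone or a pool are not given in the sources used here. Nothing in the labels says that the 3 libraries of a group came from separate cultures, so each p-value rests on a spread between libraries that may be technical only.

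MYC binds DNA only as a pair with MAX, mainly at the E-box CACGTG, where it raises transcription of genes for growth, nucleolar work and metabolism. MXI1, MXD1, MXD3, MXD4 and MNT also pair with MAX and bind the same E-box, but they bring the SIN3 corepressor and its histone deacetylases and so oppose MYC. MLX is another MAX-like partner that pairs with MXD1, MXD4 and MNT and with the glucose-responsive factors MLXIP (MondoA) and MLXIPL (ChREBP), and MGA pairs with MAX in a Polycomb complex, PRC1.6, that silences germline genes. In colorectal cancer MYC is best known as a target of the WNT pathway.

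Values are FPKM (fragment numbers scaled by the authors to gene length and depth), so levels of different genes can be compared. Estimated depth, from steps between low values, was 21.15, 27.4 and 28.2 M (mega) fragments in shControl and 20.55, 18.1 and 19.0 M in shTRMT6. It is a rough figure, since a multiple of a depth fits the steps as well and the scan was stopped at 32 M. The steps were least regular in shControl replicate 2. TRMT6 itself read 14.43, 17.96 and 16.85 FPKM in the controls, against 1.58, 1.73 and 1.09 FPKM in the knockdown, and was 11.2-fold lower (limma adjusted p = 4.33e-08). Of the epithelial markers, KRT8, KRT18, EPCAM and CDX2 were present in all 6 libraries, and KRT19, CDH1 and VIL1 were listed at 0 in all 6. The summed level of 11 markers of fibroblasts, leukocytes and endothelium was 0.25 to 1.16 FPKM in shControl and 0.31 to 0.48 FPKM in shTRMT6, with CD3E at 0 throughout. The highest sum was in shControl replicate 3, through COL1A1 at 0.65 FPKM, against 0.28 ± 0.33 FPKM (SD, n = 3) over shControl and 0.067 ± 0.032 FPKM (SD, n = 3) in shTRMT6. CD14, a monocyte marker, read 0.087 ± 0.051 FPKM in shControl and 0.287 ± 0.070 FPKM in shTRMT6 (SD, n = 3 each), too low for testing.

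Antagonists of MYC changed in both directions. MXD4 rose 2.06-fold and MXI1 1.56-fold in shTRMT6, and MXD3 fell 1.81-fold. MYC, MAX, MXD1, MNT, MLX and MGA did not pass the test. All 9 genes were tested, since each averaged at least 1 FPKM over the 6 libraries. The test was limma on log2(FPKM + 1), two-sided, with Benjamini-Hochberg adjustment over all 10592 genes tested and a threshold of 0.05. It did not use the replicate number, and every adjusted p below comes from it unless another fit is named. Thus 2 of 9 network genes were higher, against 19.3% of all genes, and 1 of 9 was lower, against 16.1% of all genes. The median log2 fold change of the 9 was 0.21, against 0.024 over all genes. The groups did not overlap for 6 of the 9 (5 higher, against 26.2% of all genes, and 1 lower, against 22.1%), and for 48.3% of all genes in either direction. The count of calls over all genes, 3746 (35.4%), went down to 2443 when shTRMT6 replicate 1 was left out and to 2396 when replicate 2 was, while MXD4, MXI1 and MXD3 passed in every fit that left out a library.

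The promoters of the 3 genes that passed are given here as RefSeq has them on GRCh38.p14, each from 250 bases before to 50 bases after an annotated start, 5′ to 3′ on the gene's strand. Capitals mark CACGTG, the E-box, or GTAAACA, a FOXO recognition sequence, which was searched because MXI1 is a known FOXO3 target. MXI1 has 3 annotated starts, called A, B and C. The promoter of ARRDC4, a target of MLX and its partners described further on, is added because it also holds an E-box. The windows of TXNIP and ARRDC3, the other targets of MLX and its partners that were higher, hold no CACGTG, and each gene has 1 window with GTAAACA. Only the exact letters CACGTG were searched, so these windows may hold related sites in other letters.
MXD4, chr4:2262060-2262359, minus strand: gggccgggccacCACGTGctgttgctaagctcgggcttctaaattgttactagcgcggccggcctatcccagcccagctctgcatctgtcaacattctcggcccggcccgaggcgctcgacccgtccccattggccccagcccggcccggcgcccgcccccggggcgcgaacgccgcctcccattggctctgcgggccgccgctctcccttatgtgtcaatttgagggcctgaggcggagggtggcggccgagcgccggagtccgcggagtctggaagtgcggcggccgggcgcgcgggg
MXI1 start A, chr10:110207355-110207654, plus strand: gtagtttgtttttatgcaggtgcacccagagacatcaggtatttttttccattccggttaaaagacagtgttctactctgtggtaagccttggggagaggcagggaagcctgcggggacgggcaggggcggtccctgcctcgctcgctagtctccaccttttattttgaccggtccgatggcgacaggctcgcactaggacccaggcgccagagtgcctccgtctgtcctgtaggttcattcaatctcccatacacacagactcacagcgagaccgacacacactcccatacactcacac
MXI1 start B, chr10:110209981-110210280, plus strand: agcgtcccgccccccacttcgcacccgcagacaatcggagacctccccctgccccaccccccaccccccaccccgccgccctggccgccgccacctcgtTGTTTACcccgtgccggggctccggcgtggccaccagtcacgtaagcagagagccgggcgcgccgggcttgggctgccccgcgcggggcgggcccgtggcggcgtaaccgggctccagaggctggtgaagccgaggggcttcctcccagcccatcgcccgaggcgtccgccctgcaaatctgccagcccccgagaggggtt
MXI1 start C, chr10:110225746-110226045, plus strand: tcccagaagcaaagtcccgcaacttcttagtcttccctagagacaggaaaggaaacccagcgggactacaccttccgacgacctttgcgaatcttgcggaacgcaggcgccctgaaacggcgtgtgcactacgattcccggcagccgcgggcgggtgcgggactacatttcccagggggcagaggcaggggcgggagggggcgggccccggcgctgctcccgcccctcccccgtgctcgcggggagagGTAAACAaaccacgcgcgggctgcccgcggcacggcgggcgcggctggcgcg
MXD3, chr5:177312703-177313002, minus strand: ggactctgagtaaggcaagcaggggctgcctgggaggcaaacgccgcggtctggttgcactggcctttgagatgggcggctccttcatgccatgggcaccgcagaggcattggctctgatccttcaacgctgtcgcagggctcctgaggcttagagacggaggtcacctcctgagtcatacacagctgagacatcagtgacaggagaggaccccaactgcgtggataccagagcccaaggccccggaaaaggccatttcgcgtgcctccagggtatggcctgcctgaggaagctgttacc
ARRDC4, chr15:97960453-97960752, plus strand: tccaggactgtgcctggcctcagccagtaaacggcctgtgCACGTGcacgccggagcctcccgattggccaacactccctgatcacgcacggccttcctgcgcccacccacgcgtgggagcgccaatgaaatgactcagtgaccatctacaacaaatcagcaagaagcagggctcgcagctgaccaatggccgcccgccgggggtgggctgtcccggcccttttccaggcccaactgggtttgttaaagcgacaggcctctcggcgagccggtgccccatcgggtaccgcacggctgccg

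Of the 9 network genes, 8 had a promoter in the RefSeq table, in 13 windows, and MYC is not shown. CACGTG, which reads the same on both strands, occurred in 3 of the 13 windows, those of MXD4 (238 bases before the start), MNT (193 bases before) and MLX (50 bases before). It occurred in 7.26% of all 35116 promoter windows of this length. GTAAACA, searched on both strands, occurred in 2 of the 13 windows, both of MXI1, at start B (151 bases before) and start C (2 bases before), and in 3.42% of all windows. The E2F sequences TTTCGCGC, TTTGGCGC, TTTCCCGC and TTTGCCGC, searched on both strands because MXD3 is a known E2F1 target, occurred in 1 of the 13 windows, a start of MGA, and in 3.31% of all windows. None of these motifs overlapped another in the windows shown. Such matches describe letters only.

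MYC (ENSG00000136997) read 217.66, 208.84 and 215.72 FPKM in the controls, against 264.96, 230.88 and 246.29 FPKM in the knockdown. All 3 shTRMT6 libraries lay above all 3 controls, by a small margin in replicate 2. The means were 214.1 ± 4.63 and 247.4 ± 17.1 FPKM (SD, n = 3 each), a ratio of 1.16, and the log2 fold change was 0.21 (SE 0.089, 95% interval 0.014 to 0.40, adjusted p = 0.0867), which did not pass. With the replicate number as a block it did (adjusted p = 0.0231), and so it did after a correction for GC content (0.31, adjusted p = 0.0056; adjusted p = 0.000743 with the block as well). Between libraries of the same number MYC was 1.22-fold, 1.11-fold and 1.14-fold higher. MYC was the most abundant mRNA of the 9 and ranked 307th of all genes by mean FPKM.

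MAX (ENSG00000125952; chromosome 14, bases 65006174 to 65102695, minus strand in GENCODE release 29), the shared partner, did not pass the test. It read 39.64, 35.59 and 38.57 FPKM in the controls, against 44.43, 36.09 and 36.47 FPKM in the knockdown, and the groups overlapped. Its log2 fold change was 0.034 (SE 0.11, 95% interval -0.19 to 0.26, adjusted p = 0.831). MLX (ENSG00000108788; chromosome 17, bases 42567068 to 42573239, plus strand), the other partner, read 48.90, 43.68 and 42.42 FPKM in the controls, against 51.90, 54.04 and 51.57 FPKM in the knockdown. Its groups did not overlap, yet the log2 fold change of 0.22 (SE 0.095) did not pass (adjusted p = 0.085). It passed with the replicate block (adjusted p = 0.0333), after GC correction (0.29, adjusted p = 0.0112), with quantile normalization (adjusted p = 0.048) and without shControl replicate 1 (adjusted p = 0.0233). The exons of MLX overlap those of PSMC3IP on the opposite strand, and since strand use in counting is not given, fragments of the overlap cannot be assigned.

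**Figure D1:**
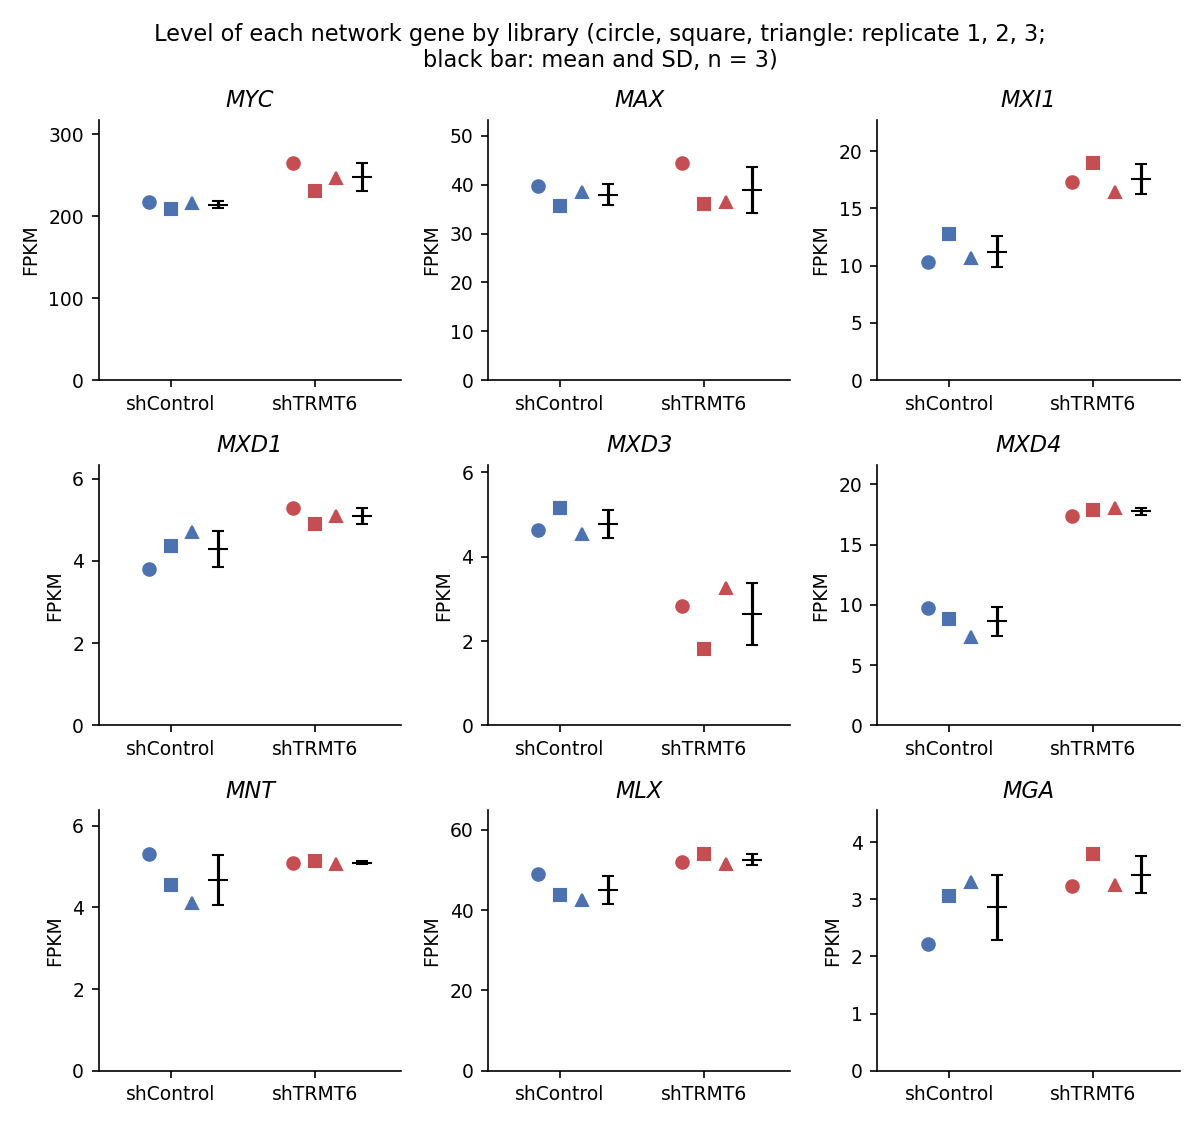
FPKM of each of the 9 network genes (vertical axis, from 0, its own scale per gene) in the 3 shControl libraries (blue) and 3 shTRMT6 libraries (red); marker shapes give the replicate number and black bars the mean and SD. The MXD4 and MXI1 points of shTRMT6 lie above all controls (17.39 to 18.02 FPKM and 16.43 to 18.97 FPKM), the MXD3 points lie below, and the MAX, MNT and MGA groups overlap.

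MXD4 (ENSG00000123933; chromosome 4, bases 2247432 to 2262294, minus strand), an antagonist linked to the exit from proliferation, changed most. It read 9.73, 8.79 and 7.35 FPKM in the controls, against 17.39, 17.86 and 18.02 FPKM in the knockdown. The shTRMT6 libraries were nearly alike and all far above the controls, with means of 8.62 ± 1.20 and 17.8 ± 0.327 FPKM (SD, n = 3 each). The log2 fold change was 0.97 (SE 0.11, adjusted p = 9.13e-05), the 90th highest of the 10592 genes tested. Between libraries of the same number it was 1.79-fold, 2.03-fold and 2.45-fold higher. A rise of at least 2-fold in FPKM that passed the test was seen in 1.66% of all genes.

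MXI1 (ENSG00000119950; chromosome 10, bases 110207605 to 110287365, plus strand), also called MXD2, read 10.32, 12.74 and 10.64 FPKM in the controls, against 17.34, 18.97 and 16.43 FPKM in the knockdown. The groups were well apart, and replicate 2 was the highest in both. The means were 11.2 ± 1.31 and 17.6 ± 1.29 FPKM (SD, n = 3 each), with a log2 fold change of 0.61 (SE 0.11, adjusted p = 0.00154). The table gives 1 value per gene, so which of the 3 starts carried the rise is not resolved. Exons of MXI1, MAX and MNT each overlap an annotated antisense transcript, and those of MGA a noncoding one on the opposite strand.

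MXD3 (ENSG00000213347; chromosome 5, bases 177301461 to 177312757, minus strand), the member of the MXD group known for expression in S phase of cycling cells, went the other way. It read 4.63, 5.15 and 4.55 FPKM in the controls, against 2.84, 1.82 and 3.27 FPKM in the knockdown. All shTRMT6 libraries were below all controls, replicate 2 furthest. In bulk RNA, fewer cells in S phase and less of the mRNA per cell cannot be told apart. The means were 4.78 ± 0.326 and 2.64 ± 0.745 FPKM (SD, n = 3 each), with a log2 fold change of -0.69 (SE 0.15, adjusted p = 0.00415). Its values rest on few fragments, an estimated 75 in the lowest library, a number that scales with the rough depth estimate. Of the 75-base windows of its longest transcript 38.7% also occur in RAB24, a neighbour on the same strand with overlapping exons, so the division of fragments between the pair is uncertain. RAB24 fell less, from 25.5 ± 1.02 to 19.4 ± 1.51 FPKM (SD, n = 3 each; 1.31-fold, adjusted p = 0.0117), and whether the MXD3 value draws on RAB24 fragments was not tested. MXD3 exons also overlap PRELID1 on the opposite strand.

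MXD1 (ENSG00000059728; chromosome 2, bases 69897688 to 69942945, plus strand), the founding member of the group and a gene of terminal differentiation, read 3.81, 4.36 and 4.70 FPKM in the controls, against 5.28, 4.90 and 5.10 FPKM in the knockdown. The groups did not overlap but lay close, and the log2 fold change of 0.21 (SE 0.12, adjusted p = 0.186) did not pass. After GC correction it was 0.024 (adjusted p = 0.846). Exons of MXD1 overlap SNRNP27 on the same strand.

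MNT (ENSG00000070444; chromosome 17, bases 2384060 to 2401118, minus strand), the broadly expressed antagonist, read 5.32, 4.56 and 4.11 FPKM in the controls, against 5.10, 5.13 and 5.06 FPKM in the knockdown. shControl replicate 1 was the highest of the 6, so the groups overlapped (log2 fold change 0.11, SE 0.12, adjusted p = 0.494). After GC correction MNT passed (0.27, adjusted p = 0.0323). MGA (ENSG00000174197; chromosome 15, bases 41621224 to 41773081, plus strand) read 2.21, 3.05 and 3.31 FPKM in the controls, against 3.24, 3.80 and 3.25 FPKM in the knockdown. shControl replicate 1 stood low and the groups overlapped (0.21, SE 0.14, adjusted p = 0.256).

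The GC content of a gene moved with its fold change. Per 10 points of transcript GC content, the deviation of a library from the mean of all 6 was 0.22 in log2 for shControl replicate 1, -0.0039 and 0.034 for shControl replicates 2 and 3, and -0.15 to -0.025 for shTRMT6. Among network genes the GC content of the longest transcript was lowest in MGA (42.0%), MXD1 (42.7%) and MXI1 (43.7%) and highest in MNT (61.4%), MXD3 (61.3%) and MXD4 (57.6%). Removing this trend lowered the log2 fold change of MXI1 to 0.45 (adjusted p = 0.002) and raised that of MXD4 to 1.11 (adjusted p = 3.69e-05). MXD3 moved to -0.53 (adjusted p = 0.0132). After this correction 5 of the 9 network genes were higher, against 19.5% of all genes, and 1 lower, against 19.3%. The replicate block gave 4 higher, against 25.5% of all genes, and 1 lower, against 21.3%. With both together 5 were higher, against 24.5% of all genes, and 1 lower, against 24.6%. In either direction, 38.8% of all genes passed after GC correction, 46.8% with the block and 49.2% with both, so the counts over all genes were larger in these fits too.

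**Figure D2:**
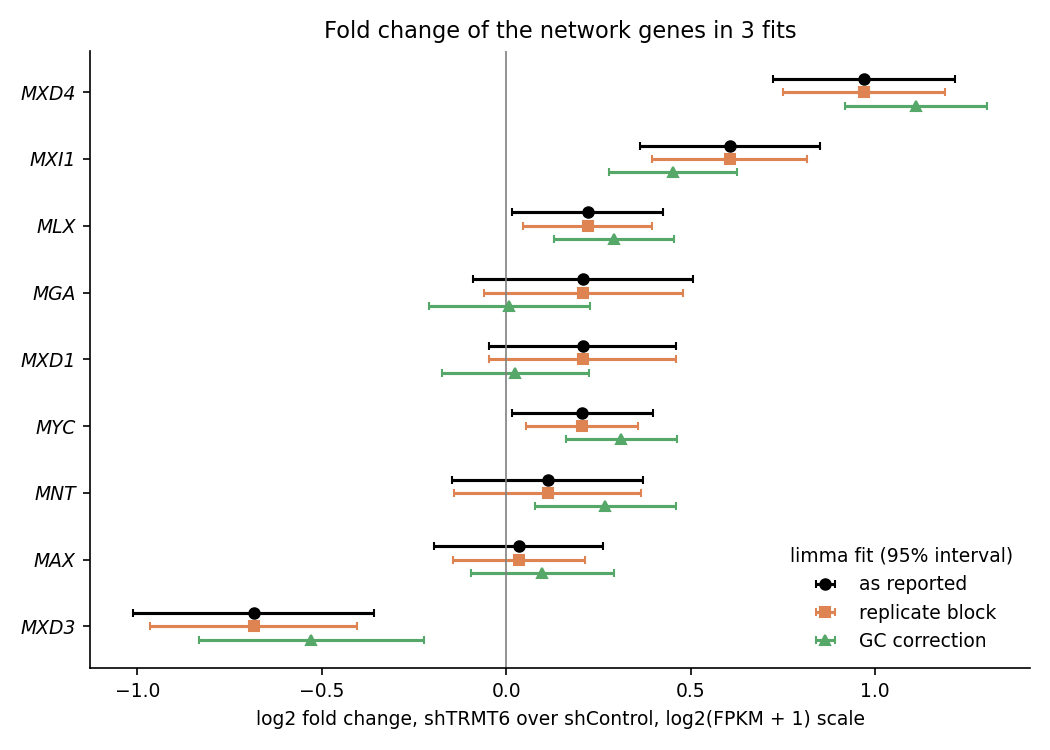
Log2 fold change of shTRMT6 over shControl (horizontal axis, log2(FPKM + 1) scale) for the 9 network genes, with 95% intervals from limma, as reported (black), with the replicate number as a block (orange) and after GC correction (green). MXD4 (0.97) and MXI1 (0.61) lie to the right of 0 and MXD3 (-0.69) to the left in all 3 fits.

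In shControl the order of mean levels was MYC (214.1 FPKM), MLX (45.0), MAX (37.9), MXI1 (11.2), MXD4 (8.62), MXD3 (4.78), MNT (4.66), MXD1 (4.29) and MGA (2.86). The single-library ranges of the neighbours MXD3, MNT and MXD1 overlapped, and those of MLX and MAX, and of MXI1 and MXD4, did not. In shTRMT6, MXD4 (17.8 FPKM) and MXI1 (17.6) overlapped each other, as did MNT (5.10) and MXD1 (5.09), and MXD3 (2.64) was below MGA (3.43), with overlapping ranges.

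Set against its antagonists, the MYC mRNA was lower in relative terms. The summed FPKM of MXI1, MXD1, MXD3, MXD4 and MNT was 33.81, 35.60 and 31.35 in shControl and 47.95, 48.68 and 47.88 in shTRMT6, with means of 33.6 ± 2.13 and 48.2 ± 0.443 (SD, n = 3 each; 1.43-fold). All shTRMT6 sums were above all control sums. MXI1 and MXD4 made up 59.1% ± 1.56 of the sum in shControl and 73.4% ± 2.02 in shTRMT6, and MXD3 made up 14.2% ± 0.460 and 5.50% ± 1.59 (SD, n = 3 each). MYC FPKM divided by this sum was 6.44, 5.87 and 6.88 in shControl and 5.53, 4.74 and 5.14 in shTRMT6. The groups did not overlap, and the mean ratio went from 6.40 ± 0.51 to 5.14 ± 0.39 (SD, n = 3 each). With MGA added to the sum the mean ratios were 5.89 ± 0.431 and 4.80 ± 0.389. Without MXD3 they were 7.46 ± 0.595 and 5.44 ± 0.478. The sum relative to MAX went from 0.889 ± 0.0987 to 1.25 ± 0.146 and MYC relative to MAX from 5.65 ± 0.195 to 6.37 ± 0.395 (SD, n = 3 each). These ratios are of mRNA and carry no test, since the genes in them were chosen together.

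**Figure D3:**
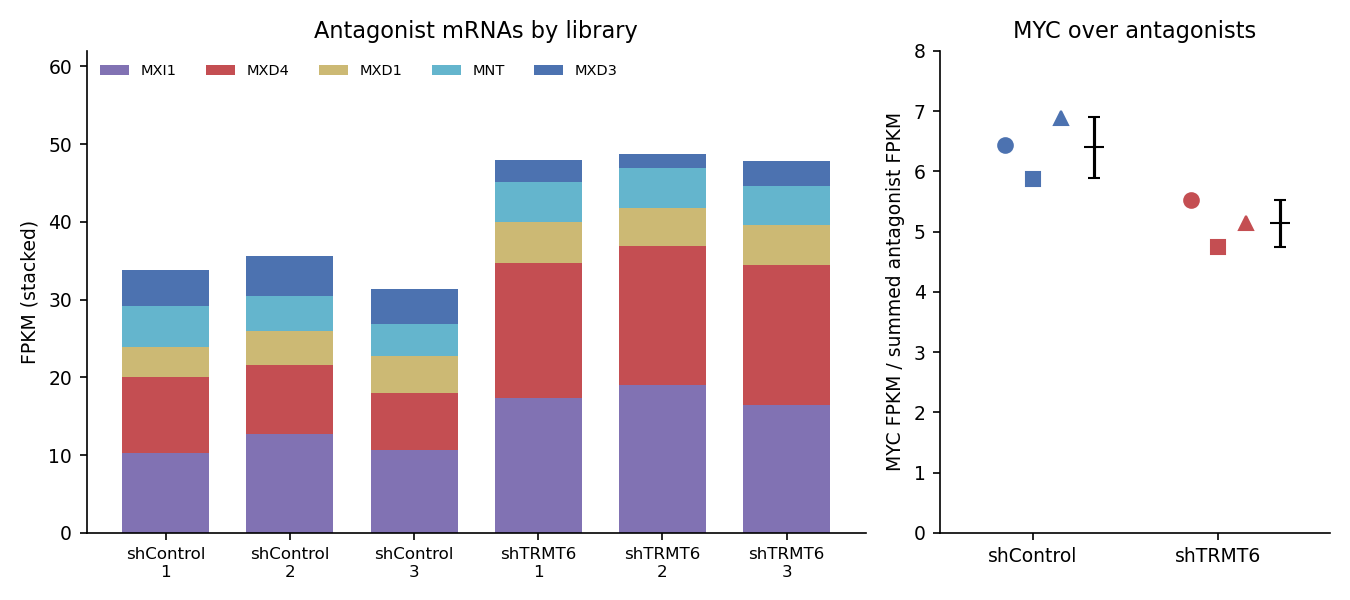
Left, stacked FPKM of the 5 antagonist mRNAs in each library; right, MYC FPKM divided by that sum, with mean and SD (n = 3). The stacks of shTRMT6 (47.88 to 48.68 FPKM) are above those of shControl (31.35 to 35.60 FPKM), mainly through MXD4 and MXI1, and the ratios of shTRMT6 are below all control ratios.

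The tested genes whose values were most like those of MYC over the 6 libraries were GSE1, MAML3, LDB1, SWI5 and BHLHE40. Likeness was the root-mean-square difference of deviations from each gene's mean on the log2(FPKM + 1) scale, which was 0.022 for GSE1 and at most 0.038 for the 5, against a median of 0.21 over all genes tested. GSE1 read 12.91, 12.03 and 12.59 FPKM in the controls, against 16.05, 14.11 and 14.71 FPKM in the knockdown, with replicate 1 highest in both groups, as for MYC.

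Of 9 other factors of the network 7 were tested. None was higher, against 19.3% of all genes, and 1 was lower, against 16.1% (median log2 fold change -0.028). With the replicate block none was higher and 2 were lower, against 25.5% and 21.3% of all genes. After GC correction 2 were higher and none lower, against 19.5% and 19.3% of all genes, with a median of 0.085. MLXIP, the MondoA partner of MLX, fell from 22.0 ± 2.00 to 17.6 ± 1.21 FPKM (SD, n = 3 each; 1.25-fold, adjusted p = 0.0418), a call that ended in 7 of 17 alternative fits. Among these were the fits without shControl replicate 1 (adjusted p = 0.0815) or 3 (0.0779) and when shTRMT6 replicate 1 (0.124) or 2 (0.155) was left out. MYCN was listed at 0 in all 6 libraries and MLXIPL was too low to test. MYCL, named after its value was seen, was low, at 1.94 ± 0.236 FPKM in shControl and 1.32 ± 0.206 FPKM in shTRMT6 (SD, n = 3 each). It did not pass the main fit (log2 fold change -0.34, adjusted p = 0.0617), and its calls in the other fits are not given.

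TXNIP, ARRDC3 and ARRDC4 were higher among the targets of MLX and its partners. Of 5 tested, 3 were higher, against 19.3% of all genes, and 1 was lower, against 16.1%, with a median log2 fold change of 0.67. With the block 4 were higher, against 25.5% of all genes, and 1 was lower, against 21.3%. After GC correction 4 were higher, against 19.5%, and 1 was lower, against 19.3%. TXNIP, which restrains glucose uptake and is the best known MondoA target, read 14.79, 13.30 and 14.90 FPKM in the controls, against 24.40, 22.47 and 24.19 FPKM in the knockdown. It rose 1.65-fold (adjusted p = 0.000357), or by 0.69 (SE 0.10) on the log2 scale. Its arrestin-family relatives ARRDC3 and ARRDC4 rose from 5.72 ± 0.877 to 13.2 ± 1.72 FPKM (2.30-fold, adjusted p = 0.000113) and from 2.09 ± 0.469 to 3.90 ± 0.527 FPKM (1.87-fold, adjusted p = 0.00318; SD, n = 3 each). The list's fall was FASN, the fatty acid synthase, named after its value was seen (134.3 to 86.9 FPKM, adjusted p = 0.00169).

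Of 10 corepressor genes used by MXD proteins and MNT, 2 were higher (20%, against 19.3% of all genes) and none lower (median -0.069). These were the histone deacetylases HDAC1, from 58.9 ± 2.15 to 82.7 ± 5.09 FPKM (1.40-fold, adjusted p = 0.00176), and HDAC2, from 28.7 ± 2.84 to 37.2 ± 2.98 FPKM (1.30-fold, adjusted p = 0.0175; SD, n = 3 each). The HDAC2 call ended after GC correction (0.11, adjusted p = 0.236, or 0.172 with the block) and without shTRMT6 replicate 2 (adjusted p = 0.0906). SIN3A and SIN3B, the scaffold subunits, did not pass. After GC correction 1 corepressor gene was higher and 3 were lower, against 19.5% and 19.3% of all genes. With the replicate block 2 were higher and 1 lower, against 25.5% and 21.3%. Of 12 coactivators of MYC, none was higher and 4 were lower (33.3%, against 16.1% of all genes; median -0.13). With the replicate block 2 coactivators were higher and 5 lower, against 25.5% and 21.3% of all genes. Among the 4 lower in the main fit, HCFC1 and EP400 each fell 1.30-fold (adjusted p = 0.0169 and 0.0401). TRRAP, named after its value was seen, fell 1.22-fold (adjusted p = 0.0461). The HCFC1 call ended without shTRMT6 replicate 2 (adjusted p = 0.0762). The EP400 call ended in 6 of 17 alternative fits, among them those without shControl replicate 1 (0.0631) or 3 (0.114) and when shTRMT6 replicate 1 (0.109) or 2 (0.177) was left out. The TRRAP call ended in 7 of 17, with adjusted p up to 0.196 (without shTRMT6 replicate 2; shTRMT6 replicate 1 and shControl replicates 2 and 3 also ended it). After GC correction 1 coactivator was higher and 2 were lower, against 19.5% and 19.3% of all genes, with a median of -0.025.

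Among 14 regulators of MYC protein stability 2 were higher and 2 lower, with a median of -0.12. That is 14.3% each way, against 19.3% and 16.1% of all genes. The replicate block gave 2 higher and 5 lower, against 25.5% and 21.3% of all genes. GC correction gave 1 and 4, against 19.5% and 19.3%. Median-of-ratios scaling gave 2 and 4, when 1841 and 1920 of all 10588 genes were higher and lower. FBXW7, the ubiquitin ligase subunit that targets phosphorylated MYC, rose from 4.29 ± 0.286 to 6.58 ± 0.851 FPKM (1.53-fold, adjusted p = 0.00607). AURKA, a mitotic kinase known to shield MYC family proteins from that ligase, fell from 57.0 ± 2.69 to 40.5 ± 1.57 FPKM (1.41-fold, adjusted p = 0.00175). SKP2, another ligase subunit that acts on MYC, fell 1.25-fold (adjusted p = 0.0332), a call that ended in 5 of 17 alternative fits, among them those without shControl replicate 2 (0.11) or 3 (0.0608) and when shTRMT6 replicate 2 (0.124) or 3 (0.0899) was left out. MYC protein was not measured here.

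Of 62 genes listed here as activated by MYC, 61 were tested. Of these, 16 were higher and 4 lower, against 19.3% and 16.1% of all genes, with a median of 0.12 on the log2 scale. With the replicate block 22 were higher and 7 lower, against 25.5% and 21.3% of all genes. After GC correction 21 were higher and 3 lower, against 19.5% and 19.3%. NOLC1, a nucleolar phosphoprotein, rose from 34.0 ± 1.19 to 63.6 ± 6.18 FPKM (1.87-fold, adjusted p = 7.05e-05). MPHOSPH10, of small-subunit ribosomal RNA processing, rose 1.89-fold (adjusted p = 0.00226) and the mitochondrial chaperonin HSPD1 1.78-fold (adjusted p = 0.000145). The 4 lower genes, named after their values were seen, were the nucleoside transporter SLC29A2 (1.78-fold), the folate carrier SLC19A1 (1.50-fold), CAD of pyrimidine synthesis (1.50-fold) and MYBBP1A (1.27-fold); the MYBBP1A call ended without shTRMT6 replicate 1 (adjusted p = 0.079) and after GC correction (0.0782). Of 18 genes repressed by MYC 14 were tested, 7 were higher (50%, against 19.3% of all genes) and none lower, against 16.1% (median 0.32). The replicate block gave the same counts, and after GC correction 7 were higher and 1 lower. CDKN1A, the cyclin-dependent kinase inhibitor p21, read 126.83, 102.35 and 101.13 FPKM in the controls, against 216.82, 205.60 and 207.93 FPKM in the knockdown (1.91-fold, adjusted p = 5.33e-05). GADD45A rose from 22.9 ± 1.63 to 39.3 ± 2.92 FPKM (1.72-fold, adjusted p = 0.000212) and CLU from 109.2 ± 10.7 to 169.6 ± 27.7 FPKM (1.55-fold, adjusted p = 0.00176). CDKN1A and GADD45A are also p53 targets. Genes said to be activated by MYC (26.2% higher, 6.56% lower) and genes said to be repressed by it (50% and none) thus both had more higher than lower calls. So did all genes tested, by a smaller margin (19.3% and 16.1%). With median-of-ratios scaling, however, 1841 of all genes were higher and 1920 lower. With GC correction and block together, 2599 were higher and 2608 lower.

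**Figure D4:**
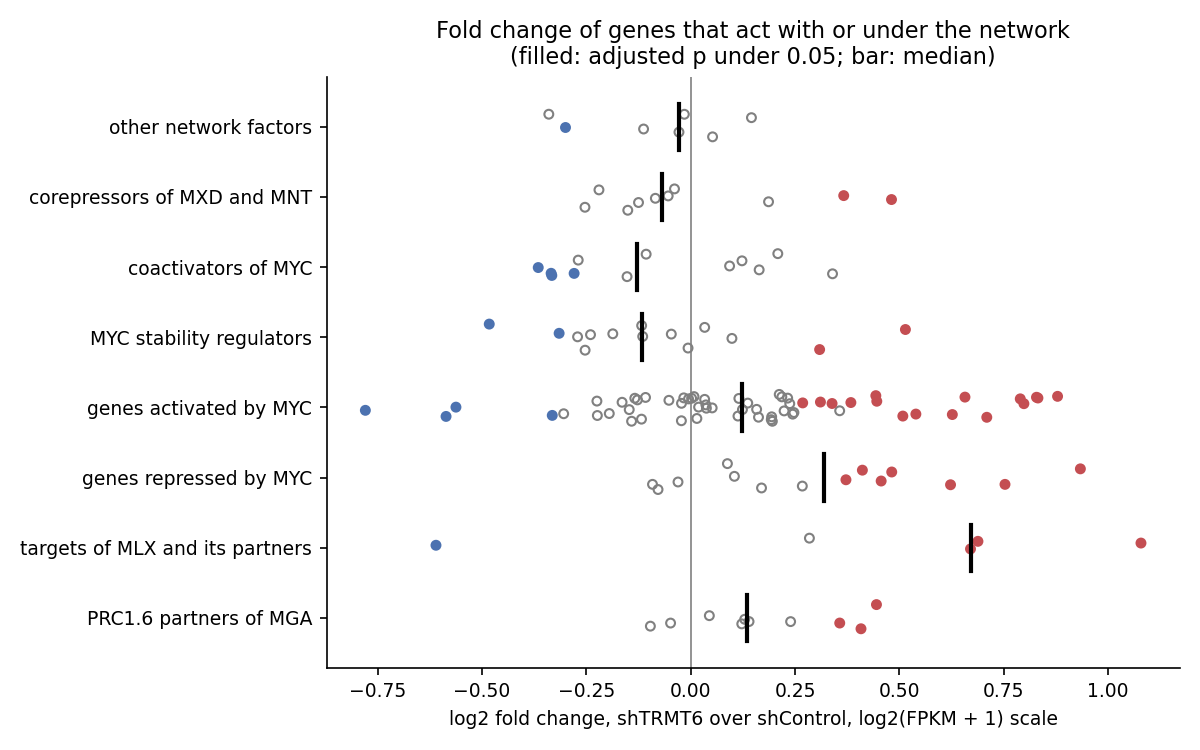
Log2 fold change (horizontal axis, log2(FPKM + 1) scale) of each tested gene in 8 lists of genes that act with or under the network; filled points passed the test (red higher, blue lower), open points did not, and bars are medians. Medians run from -0.13 for coactivators of MYC to 0.67 for targets of MLX and its partners.

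Of 10 partners of MGA in PRC1.6 tested, 3 rose (30%, against 19.3% of all genes) and none fell (median 0.13): YAF2, RYBP and PCGF6, all core subunits, by 1.43-fold, 1.37-fold and 1.38-fold (adjusted p = 0.0125, 0.0318 and 0.0115). None of these 3 calls held after GC correction (adjusted p = 0.175, 0.274 and 0.0841), and the GC content of their longest transcripts is 39.7%, 40.6% and 42.0%. After that correction 1 of the 10 was higher, against 19.5% of all genes, and with the replicate block 4 were, against 25.5%. With a library left out, the highest adjusted p was 0.062 for YAF2 (shControl replicate 3; shTRMT6 replicates 1 and 2 also ended the call), 0.0608 for PCGF6 (shTRMT6 replicate 1) and 0.0968 for RYBP (shTRMT6 replicate 2; of the other libraries, each but shControl replicate 2 also ended it). Of 14 germline genes that the complex is known to silence, only STAG3 and TDRKH were high enough to test, and neither passed (log2 fold change -0.037 and -0.024, adjusted p = 0.855 and 0.893). Among the other 12, SYCE2 and ZCWPW1 had the highest means, both under 1 FPKM. Of 4 epithelial markers tested, 2 were higher (50%, against 19.3% of all genes) and none lower, against 16.1%. KRT8 and CDX2 did not pass (log2 fold change 0.067 and -0.047, adjusted p = 0.687 and 0.811). KRT18 rose from 118.4 ± 15.6 to 186.3 ± 7.11 FPKM (adjusted p = 0.00053) and EPCAM from 4.20 ± 1.03 to 6.29 ± 1.08 FPKM (adjusted p = 0.0282; SD, n = 3 each). The EPCAM call ended in 4 of 17 alternative fits, among them those without shControl replicate 1 (adjusted p = 0.0863) and when shTRMT6 replicate 2 (0.114) or 3 (0.0696) was left out.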

How the data were processed

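The authors deposited FPKM values, per the file headers, for each gene in each library. Tools listed in the submitters' processing notes, with no role stated, are HISAT2, RSEM, StringTie 1.3.1, fastp 0.18.0 and Bowtie2 2.2.8. Genome build, annotation and strand setting are not given in the sources used here. Its columns were matched to the sample titles by group abbreviation (NC for shControl, SH for shTRMT6) and replicate number.

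Genes averaging at least 1 FPKM over the 6 libraries (10592 genes) were tested on log2(FPKM + 1) with limma 3.58.1 (R 4.3.3) with a trended variance prior. This scale understates the change of low genes, so ratios of mean FPKM are given too. On simulated data for this comparison (10591 genes), 36 of 100 changes of 0.5 and 87 of 98 changes of 1 in log2 were recovered, with 2 false calls. The simulation changed 200 genes, while 3746 passed in the data, and its noise had no replicate or GC trend. Its rates of recovery and of false calls therefore need not hold for the data. Symbols came from a gene name table (20257 identifiers matched). GENCODE release 29 (20171 matched) gave positions, lengths and GC content. The authors may have used another build. Depth was estimated with single-transcript genes of 300 to 1000 bases, scanning 10 to 32 M (mega) fragments. The depth per library limits the precision of low genes.

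The groups share replicate numbers. Deviations from the group mean correlated at 0.206, 0.364 and 0.17 across genes between libraries of the same number and at -0.288 to 0.0936 between different numbers. The labels do not say what the numbers stand for, and the main fit did not use them, so its adjusted p values are unpaired. A fit with the replicate number as a block is given where it changed the call of a named gene or the counts of a list.

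The 9 genes and the lists (network factors, corepressors, coactivators, stability regulators, MYC-activated and MYC-repressed genes, MLX-partner targets, PRC1.6 partners, germline genes, epithelial and other cell markers) were chosen with earlier results of these data known. Named genes were TRMT6, the 9, from each list up to 3 past the threshold with the largest change (or the 2 most abundant if none passed), and the 5 genes nearest to MYC. The values of 1 gene this rule names are not reported here. The 17 alternatives were median-of-ratios scaling, quantile normalization, pseudocounts of 0.1 and 0.5, a filter at 5 FPKM or none, a robust or untrended variance prior, a replicate block, GC correction (loess, span 0.5), both together, and each library left out.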

Additional observations from a re-analysis of the deposited data

How the results depend on the processing

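MXD4, MXI1 and MXD3 kept their direction and passed in each alternative that could test them (17, 17 and 16; with a mean of at least 5 FPKM, MXD3 was not tested). The number of network genes past the threshold was 5 of 9 with the replicate block, 6 with GC correction and 6 with both, when 46.8%, 38.8% and 49.2% of all genes passed. MYC passed at a log2 fold change of 0.21 with the replicate block and of 0.31 with GC correction, alone or with the block; its adjusted p ranged from 0.000743 to 0.334 over the 17. The block changed no call among MXD1, MNT, MGA and MAX. Why GC correction or the block added calls was not tested. The MAX log2 fold change was -0.00054 with median-of-ratios scaling and -0.061 to 0.085 with a library left out. STAG3 stood at 0.069 with GC correction, with or without the block, and at -0.11 to 0.020 with a library left out; TDRKH stood at -0.068 to 0.058. Leaving out a library gave 2396 to 3619 genes past the threshold and 28 to 49 of the list genes. List genes past the threshold numbered 47 with all libraries, when 35.4% of all genes passed. With GC correction and block together they numbered 75, when 49.2% of all genes passed. These are bare counts over all lists, so they do not show whether list genes passed more often than other genes. Fewer libraries leave fewer degrees of freedom. The difference in the ratio of MYC to its antagonists was between -1.52 and -0.86 over the 9 alternatives it was computed for. Among these, median-of-ratios scaling divides each library by 1 factor and so could not change it. Low estimated fragment counts limit the precision of MXD3.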
